A study of Mus musculus with 16 samples.

Results

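The 41 genes described here are interferon-stimulated genes, measured in hippocampal RNA of 8-month-old female mice. They were taken by name from the table of raw counts, which holds 49671 gene rows, and were kept where their counts over all libraries came to 10 or more. All 41 had a single row and passed that limit, with totals from 44 counts (Mx1) to 10489 counts (Ifi27), so no member lies just outside it. Over all rows, 22573 genes passed the same limit. The 16 libraries form 4 groups of 4. PS19_p16KO mice carry the PS19 transgene and lack p16, PS19 mice carry the transgene with p16 intact, p16KO mice lack p16 without the transgene, and wildtype mice have neither change. All groups share tissue, sex and age, and no treatment is recorded. PS19 is a transgene for human tau with a mutation of familial dementia, driven by the mouse prion promoter, and is used as a model of tauopathy. The p16 protein, a product of Cdkn2a, holds cells in arrest and is used as a marker of senescent cells. The labels name neither the knockout allele nor the strain background.

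Interferons are secreted proteins that signal through paired receptors, JAK kinases and STAT factors. Type I interferons activate a complex with STAT2 and IRF9 that binds the interferon-stimulated response element (ISRE), and interferon gamma acts through the gamma-activated site (GAS). The genes switched on include sensors of viral RNA and DNA, IRF factors that sustain the signal, and effectors that block translation, entry or replication of viruses. In the brain, microglia, astrocytes and endothelial cells can all express such genes, and a subset of microglia with high interferon-stimulated genes is known from ageing and neurodegeneration.

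To show what these genes share near their start sites, RefSeq windows of 250 bases before to 50 after the start (build GRCm38.p6) were searched on both strands for the ISRE core (GAAA, any 2 bases, GAAA) and the GAS (TTC, any 3 bases, GAA). A window was at hand for 30 of the 41 genes, and for 27025 genes in all. The ISRE core was present in 14 of the 30 (46.7%), against 3.99% of all genes, and the GAS in 7 (23.3%), against 9.55%. A match is a description of letters and not a site of binding, and both motifs can overlap. The windows below include the gene with the firmest difference (Ifit3b) and its near copy Ifit3. Ifit1 and Gbp2 are shown because both were highest in PS19 libraries 1 and 2. Isg15, whose highest values were in PS19 libraries 1 and 3, is shown as well. Irf1 is a gene with only a GAS and a fold change near 0 in PS19 against wildtype. Cmpk2 is a gene with neither motif and a steady level. Because these genes were picked with their levels known, the windows cannot show whether motif and change go together. Stat2 and Ifih1, not shown, hold a core and had log2 0.01 and 0.11 in PS19 against wildtype. Lgals3bp and Oasl2, not shown either, hold neither motif and had log2 1.31 and 0.98. Capitals mark the motif matches, either as written or as the reverse complement (TTTC, any 2 bases, TTTC for the ISRE core). Ifit3b lies at chr19:34607707-34608006, plus strand, and Ifit3 at chr19:34583279-34583578, plus strand. Ifit1 lies at chr19:34640639-34640938, plus strand, Isg15 at chr4:156200769-156201068, minus strand, and Gbp2 at chr3:142620413-142620712, plus strand. Irf1 lies at chr11:53769764-53770063, plus strand, and Cmpk2 at chr12:26468965-26469264, plus strand.
Ifit3b: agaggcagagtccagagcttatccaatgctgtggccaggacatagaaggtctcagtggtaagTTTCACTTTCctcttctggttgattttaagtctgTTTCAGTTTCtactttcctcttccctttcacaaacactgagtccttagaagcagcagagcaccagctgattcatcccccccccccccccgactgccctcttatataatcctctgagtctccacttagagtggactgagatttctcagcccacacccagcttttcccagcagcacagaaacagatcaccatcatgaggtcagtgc
Ifit3: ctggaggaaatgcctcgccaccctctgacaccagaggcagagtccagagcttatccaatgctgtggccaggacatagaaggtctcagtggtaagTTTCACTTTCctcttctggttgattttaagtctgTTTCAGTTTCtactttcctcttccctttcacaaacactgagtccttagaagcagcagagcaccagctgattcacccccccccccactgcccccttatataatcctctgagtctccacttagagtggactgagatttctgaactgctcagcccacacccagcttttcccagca
Ifit1: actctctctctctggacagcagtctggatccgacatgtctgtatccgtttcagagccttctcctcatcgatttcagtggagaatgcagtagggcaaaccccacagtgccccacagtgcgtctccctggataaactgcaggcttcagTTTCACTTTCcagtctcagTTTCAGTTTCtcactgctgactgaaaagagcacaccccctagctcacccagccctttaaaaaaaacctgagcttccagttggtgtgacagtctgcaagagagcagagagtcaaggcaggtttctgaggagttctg
Isg15: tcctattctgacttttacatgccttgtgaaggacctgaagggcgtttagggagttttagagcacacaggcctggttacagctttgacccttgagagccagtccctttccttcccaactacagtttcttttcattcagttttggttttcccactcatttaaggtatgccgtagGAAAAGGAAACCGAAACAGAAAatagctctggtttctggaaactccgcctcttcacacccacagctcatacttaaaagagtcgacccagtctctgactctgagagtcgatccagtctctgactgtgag
Gbp2: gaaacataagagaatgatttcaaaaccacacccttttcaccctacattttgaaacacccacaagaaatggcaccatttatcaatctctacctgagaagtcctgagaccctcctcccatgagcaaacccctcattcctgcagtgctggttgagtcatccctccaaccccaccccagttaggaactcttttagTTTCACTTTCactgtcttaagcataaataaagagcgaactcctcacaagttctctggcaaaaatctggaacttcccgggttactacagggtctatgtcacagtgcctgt
Irf1: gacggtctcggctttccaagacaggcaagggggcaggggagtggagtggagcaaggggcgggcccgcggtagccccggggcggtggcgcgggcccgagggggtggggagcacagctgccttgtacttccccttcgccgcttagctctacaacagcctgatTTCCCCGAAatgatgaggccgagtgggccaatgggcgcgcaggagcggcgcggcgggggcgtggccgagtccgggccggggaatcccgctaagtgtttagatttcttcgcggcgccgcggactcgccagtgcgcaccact
Cmpk2: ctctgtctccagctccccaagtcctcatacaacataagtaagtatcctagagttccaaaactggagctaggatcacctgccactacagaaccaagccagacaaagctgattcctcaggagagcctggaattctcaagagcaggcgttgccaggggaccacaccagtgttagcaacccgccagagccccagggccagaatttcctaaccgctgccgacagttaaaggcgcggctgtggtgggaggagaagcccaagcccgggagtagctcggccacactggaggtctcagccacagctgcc
In Ifit3b and Ifit3 a pair of ISRE cores stands with their first bases 34 apart, at -188 and -154 in Ifit3b and at -156 and -122 in Ifit3, counted from the start site. The longest identical stretch of these windows is 169 bases. Ifit1 holds 2 cores 19 bases apart, and Isg15 holds 3 overlapping cores at steps of 6 bases. Gbp2 has a single core at -59, and Irf1 a single GAS at -90. The 14 genes with the ISRE core were Bst2, Ddx58, Gbp2, Gbp3, Gbp7, Ifih1, Ifit1, Ifit3, Ifit3b, Ifitm3, Isg15, Oas1a, Rsad2 and Stat2.

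Libraries held between 18485552 and 22311322 gene counts, and levels are given as CPM, the counts of a gene divided by the library's gene counts and scaled to a common total, for libraries 1 to 4 of each group, in that order. The targeted gene Cdkn2a had 2 counts in all over PS19_p16KO, 18 over PS19, 3 over p16KO and 8 over wildtype. Neuronal markers of the hippocampus were present throughout, with Prox1, a marker of dentate granule cells, between 117 and 169 CPM. Summed choroid plexus markers (7 of 7 detected) reached 5745 CPM in PS19_p16KO library 3, 3393 CPM in p16KO library 4 and 849 CPM in wildtype library 1. The others had 36.6 to 198 CPM, so some values are also given without these 3 libraries. Of the 41 genes, 38 were high enough for the test, edgeR's quasi-likelihood F test with p-values adjusted over 16372 genes. A gene is said to have risen or fallen only where the adjusted p was under 0.05.

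**Figure D1:**
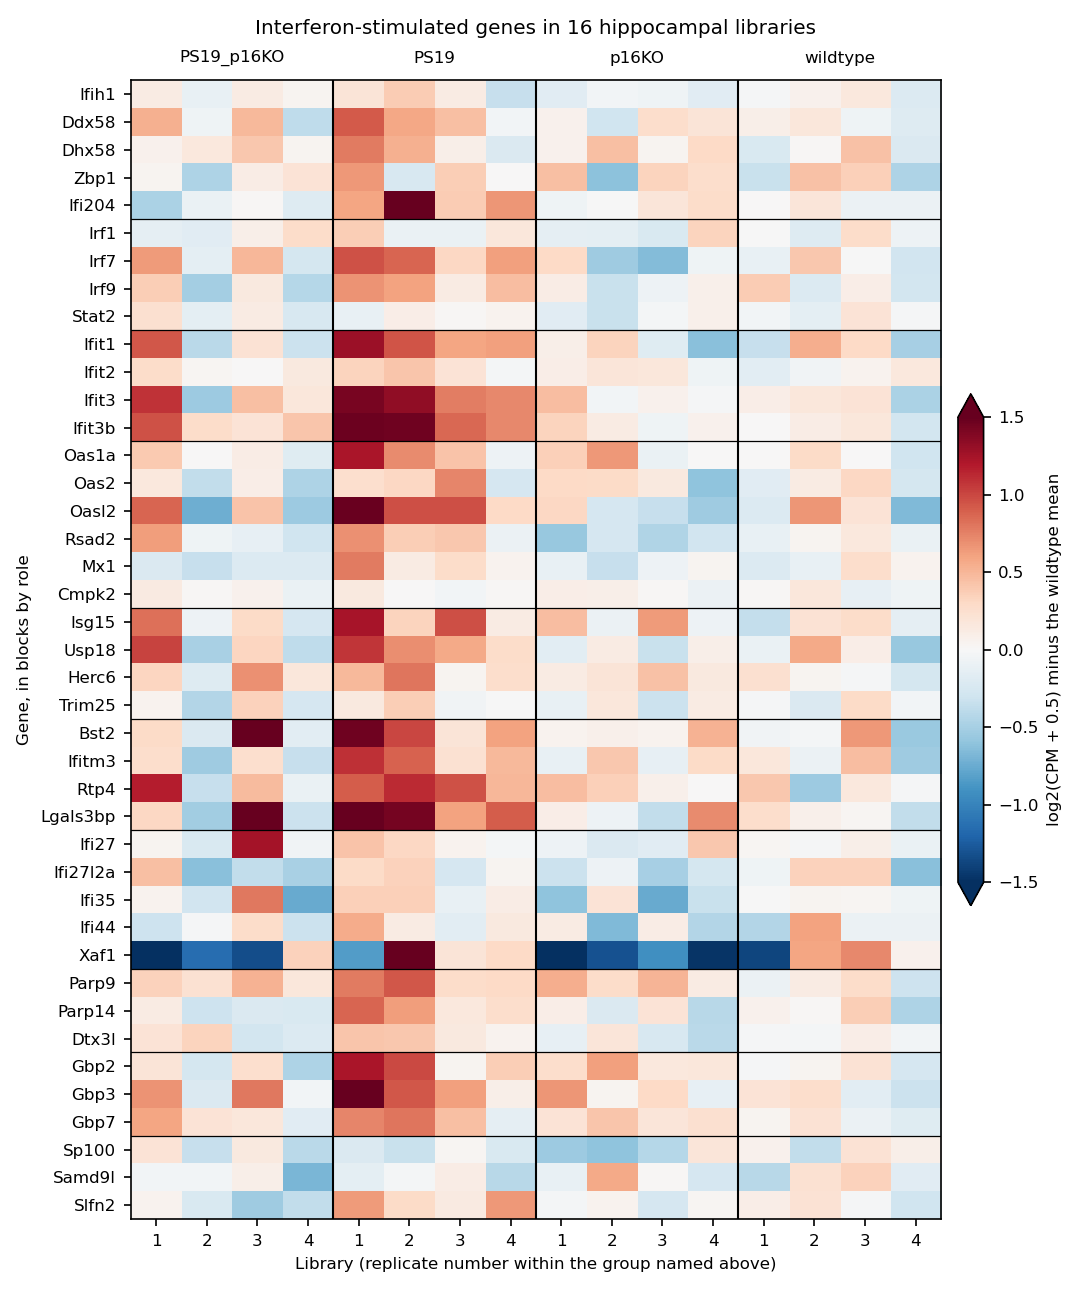
Level of each of the 41 genes in each library, as log2(CPM + 0.5) minus the mean of the wildtype libraries, in blocks by role. Red is above and blue below that mean, and the scale ends at 1.5 in both directions. PS19 libraries 1 and 2 are red for most genes, PS19_p16KO library 1 for many, and Xaf1 is low in 9 of the 16 libraries.

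In PS19 against wildtype, where the question is what the tau transgene does with p16 intact, 1 of the 38 tested genes rose, the IFIT family gene Ifit3b. Of all genes tested, 1.61% passed, and 1.56% were higher. Most of the other genes leaned the same way: 36 of 38 had a positive fold change, against 48.3% of all genes, and the median log2 fold change was 0.53, against -0.01 for all genes. At an unadjusted p under 0.05, 20 were higher, a share of 52.6% against 6.8% of all genes, and 0 were lower, against 2.77% of all genes. In 6 of the 38 every PS19 library lay above every wildtype library, a share of 15.8% against 3.52% of all genes. These were Ifit3b, Ifit3, Ifit1, Parp9, Rtp4 and Lgals3bp. Without PS19 library 3, Gbp2 and Parp9 passed beside Ifit3b, in a fit that called 438 of 16584 genes, against 264 of 16372 with all libraries. Gbp7 passed beside Ifit3b without PS19 library 4 (228 of 16582 genes), and Ifit3 without PS19_p16KO library 1 (240 of 16579) or 2 (254 of 16578), which enter the shared spread. A change in the number of cells of a type and a change in RNA per cell cannot be told apart in such bulk samples.

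In PS19_p16KO against PS19, where the question is what loss of p16 does in mice with the transgene, 0 of 38 passed edgeR's test, and 0 passed DESeq2 and limma-voom. Of all genes, 0.825% passed and 0.776% were lower. Fold changes were positive for 4 of the 38, against 50.6% of all genes, with a median log2 of -0.52, against 0.00 for all genes. At an unadjusted p under 0.05, 10 were lower (26.3%, against 5.47% of all genes) and 0 higher (3.12% of all genes). The PS19_p16KO libraries lay below every PS19 library for 2 genes, Slfn2 and Parp14, a share of 5.26% against 2.63% of all genes. This comparison shares the PS19 libraries with the one before, so values high in PS19 enter both. The median was -0.23 without PS19 library 1. Without PS19 library 3, Gbp2 and Slfn2 passed, in a fit that called 347 of 16584 genes, against 135 of 16372 with all libraries.

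**Figure D2:**
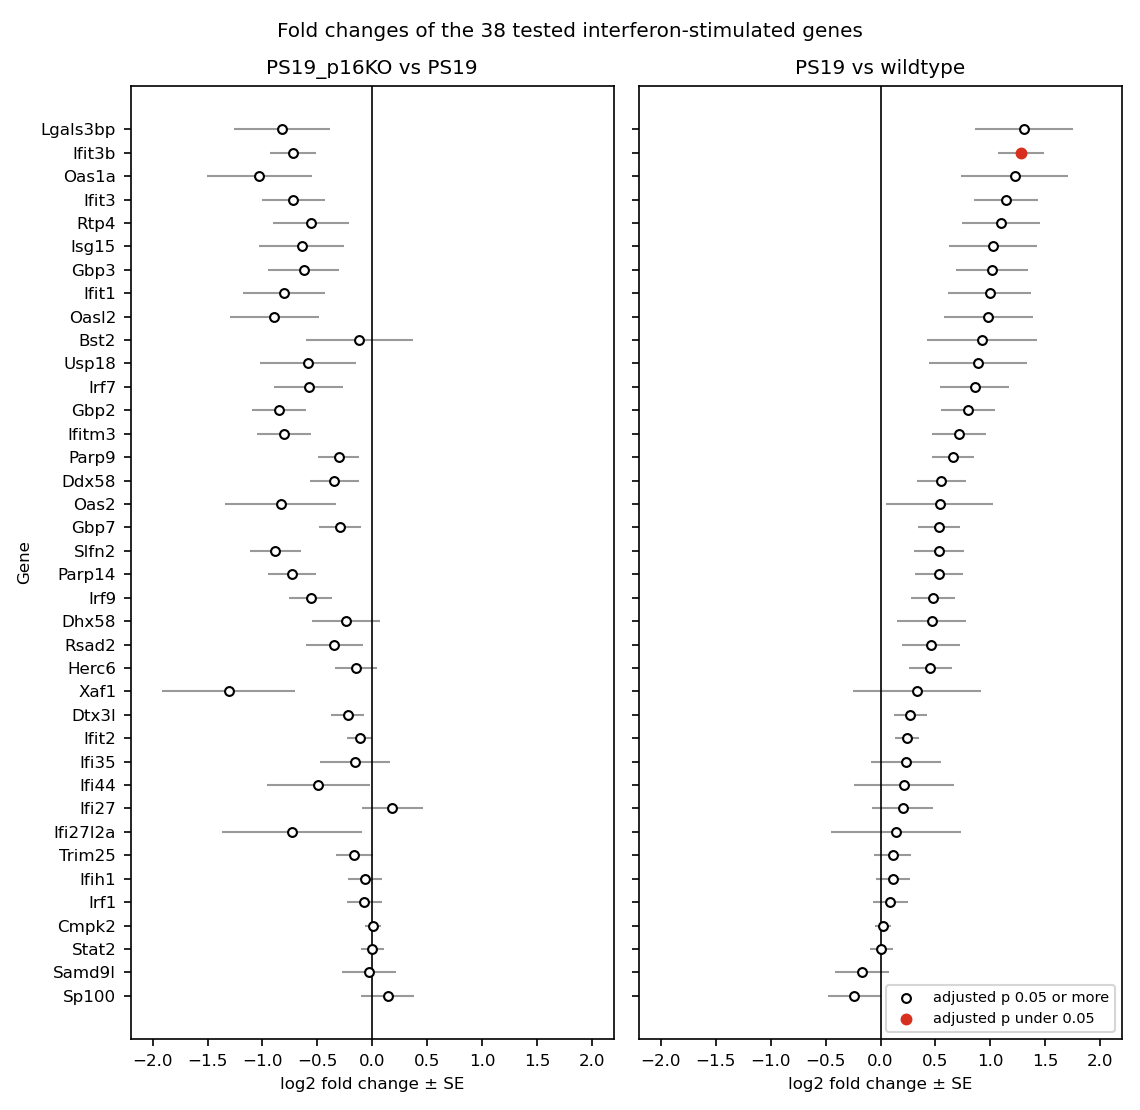
Log2 fold change ± SE of the 38 tested genes, for PS19_p16KO against PS19 (left) and PS19 against wildtype (right), ordered by the right panel. The filled point is Ifit3b, the gene with an adjusted p under 0.05, and open points missed it. Stat2 and Cmpk2 lie close to 0 in both panels.

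The IFIT family, whose proteins bind foreign RNA and block its translation, held the gene that passed the test. Ifit3b had 6.02, 3.56, 3.38 and 4 CPM in PS19_p16KO, 8.87, 8.74, 5.65 and 5.04 CPM in PS19, 3.74, 3.19, 2.72 and 3.03 CPM in p16KO, and 2.88, 3.14, 3.28 and 2.28 CPM in wildtype. All PS19 libraries stood above all wildtype libraries, with libraries 1 and 2 well above libraries 3 and 4, and PS19_p16KO library 1 reached into the PS19 range. Ifit3b rose in PS19 against wildtype (log2 1.28 ± 0.21, adjusted p = 0.00227 by edgeR), and passed in each of the 25 alternative fits tried. Without the 3 libraries rich in choroid plexus markers it had log2 1.27 ± 0.23 (adjusted p = 0.00977 by edgeR). Against PS19 it was lower in PS19_p16KO without passing (log2 -0.72 ± 0.21, adjusted p = 0.13). Every PS19_p16KO library still lay above every wildtype library (log2 0.56 ± 0.21, adjusted p = 0.568), for Ifit3b alone of the 38 (2.63%, against 2.05% of all genes).

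Ifit3, whose protein stabilises the IFIT complex, had 11.2, 3.25, 7.02 and 5.68 CPM in PS19_p16KO, 14.3, 13.3, 8.88 and 8.57 CPM in PS19, 7.07, 4.83, 5.23 and 4.91 CPM in p16KO, and 5.4, 5.69, 5.82 and 3.45 CPM in wildtype. PS19 and wildtype did not overlap, while PS19_p16KO ran from below all wildtype libraries to above PS19 libraries 3 and 4. The PS19 difference missed the threshold (log2 1.14 ± 0.29, adjusted p = 0.0674), and passed in 6 of 25 alternative fits. It was log2 1.16 ± 0.37 (adjusted p = 0.191 by edgeR) without the 3 libraries rich in choroid plexus markers. PS19_p16KO against PS19 had a log2 fold change of -0.72 ± 0.29 (adjusted p = 0.429). Of the 100-base words in the Ifit3 transcripts 31.7% also occur in other genes, most often Ifit3b, and 27.4% of those of Ifit3b do, so reads of the pair may be split uncertainly between them.

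Ifit1, which binds RNA that lacks the host cap mark, had 3.13, 0.944, 1.72 and 1.03 CPM in PS19_p16KO, 4.14, 3.15, 2.37 and 2.41 CPM in PS19, 1.53, 1.9, 1.18 and 0.732 CPM in p16KO, and 0.996, 2.29, 1.85 and 0.849 CPM in wildtype. Its PS19 libraries lay above all wildtype ones, the lowest by a small margin, and PS19_p16KO library 1 lay among the PS19 values. Neither comparison passed, with log2 1.0 ± 0.38 in PS19 against wildtype (adjusted p = 0.328) and -0.80 ± 0.38 in PS19_p16KO against PS19 (adjusted p = 0.568). Ifit2, the fourth member, varied little, between 8.17 and 12.3 CPM over all libraries, with log2 0.24 ± 0.11 in PS19 against wildtype (adjusted p = 0.507). Among the 4 family members the median log2 fold change was 1.07 in PS19 against wildtype and -0.72 in PS19_p16KO against PS19.

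Guanylate-binding proteins are GTPases that attack membranes of intracellular pathogens, and lie together on chromosome 3. Gbp2 had 3.79, 2.62, 3.97 and 2.22 CPM in PS19_p16KO, 8.22, 6.94, 3.34 and 4.34 CPM in PS19, 4.01, 5.24, 3.69 and 3.71 CPM in p16KO, and 3.2, 3.36, 3.86 and 2.65 CPM in wildtype. PS19 libraries 1 and 2 stood above everything else, while PS19 libraries 3 and 4 overlapped with wildtype and p16KO values. Its log2 fold change was 0.80 ± 0.24 in PS19 against wildtype (adjusted p = 0.134) and -0.85 ± 0.24 in PS19_p16KO against PS19 (adjusted p = 0.137). Gbp2 also had the smallest p of the 38 for the interaction, the difference between the transgene effect without p16 and with it (log2 -1.19 ± 0.35, unadjusted p = 0.00267, adjusted p = 0.286 by edgeR). Without PS19 library 3, the lowest of its group, Gbp2 passed in PS19 against wildtype (adjusted p = 0.017), in PS19_p16KO against PS19 (adjusted p = 0.0166) and for the interaction (adjusted p = 0.0373), in a fit that also called more of all genes in each of the 3.

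Gbp3 had 5.45, 2.73, 5.95 and 3.14 CPM in PS19_p16KO, 11.5, 6.6, 5.22 and 3.48 CPM in PS19, 5.41, 3.34, 4.1 and 2.93 CPM in p16KO, and 3.83, 3.99, 2.86 and 2.49 CPM in wildtype. PS19 library 1 was well above all other libraries, and PS19 library 4 lay inside the wildtype range. The log2 fold change was 1.02 ± 0.33 in PS19 against wildtype (adjusted p = 0.209). Gbp7 had 7.58, 5.66, 5.52 and 4.27 CPM in PS19_p16KO, 8.38, 8.88, 6.83 and 4.39 CPM in PS19, 5.68, 6.68, 5.59 and 5.85 CPM in p16KO, and 5.03, 5.74, 4.55 and 4.24 CPM in wildtype. All groups overlapped, PS19 libraries 1 and 2 were the highest of the 16, and PS19 library 4 was among the lowest. Gbp7 had a log2 fold change of 0.53 ± 0.19 in PS19 against wildtype (adjusted p = 0.262) and passed without PS19 library 4. Gbp7 shares 11.3% of its exon bases with a same-strand gene model. In PS19_p16KO against PS19, Gbp3 had a log2 fold change of -0.62 ± 0.33 and Gbp7 of -0.29 ± 0.19, and neither passed.

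The OAS enzymes make the second messenger that activates RNase L. Oas1a, at a low level, had 0.569, 0.315, 0.375 and 0.216 CPM in PS19_p16KO, 1.4, 0.825, 0.592 and 0.268 CPM in PS19, 0.54, 0.771, 0.256 and 0.314 CPM in p16KO, and 0.314, 0.493, 0.317 and 0.159 CPM in wildtype. PS19 libraries 1 and 2 were the highest of all, and PS19 libraries 3 and 4 lay among the values of the other groups. The log2 fold change was 1.22 ± 0.48 in PS19 against wildtype (adjusted p = 0.355) and -1.03 ± 0.48 in PS19_p16KO against PS19 (adjusted p = 0.558). Of its 100-base words 40.9% also occur in other genes, most often Oas1g. Oasl2, a relative of the family, had 6.78, 1.89, 4.83 and 2.22 CPM in PS19_p16KO, 10.6, 7.23, 7.26 and 4.39 CPM in PS19, 4.41, 2.83, 2.62 and 2.25 CPM in p16KO, and 2.93, 5.78, 4.07 and 2.02 CPM in wildtype. PS19 library 4 lay below the highest wildtype library, PS19_p16KO library 1 reached into the PS19 range, and PS19_p16KO libraries 2 and 4 were near the lowest wildtype library. Oasl2 had log2 0.98 ± 0.41 in PS19 against wildtype (adjusted p = 0.416) and -0.89 ± 0.40 in PS19_p16KO against PS19 (adjusted p = 0.559). Oas2 stayed between 0.104 and 1.02 CPM with overlapping groups (log2 0.54 ± 0.49 in PS19 against wildtype).

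Rsad2 (viperin), which makes a chain-terminating nucleotide, had group means of 1.62 CPM ± 0.665 in PS19_p16KO, 2.09 CPM ± 0.552 in PS19, 1.04 CPM ± 0.153 in p16KO and 1.51 CPM ± 0.181 in wildtype (SD, n = 4 each). All p16KO libraries lay below all wildtype libraries, for Rsad2 alone of the 38 (2.63%, against 1.24% of all genes). The log2 fold change was -0.55 ± 0.27 in p16KO against wildtype (adjusted p = 0.999) and 0.66 ± 0.27 in PS19_p16KO against p16KO (adjusted p = 0.999). Its neighbour on chromosome 12, Cmpk2, a nucleotide kinase of mitochondria, was steady, between 27.7 and 34.1 CPM in all 16 libraries, with log2 0.02 ± 0.07 in PS19 against wildtype.

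ISG15 is a ubiquitin-like protein that is attached to other proteins, with Herc6 as a ligase, Usp18 as the protease that removes it and Trim25 as a ligase that activates the sensor Ddx58. Isg15 ran from 0.857 to 2.42 CPM in PS19 and from 0.471 to 1 CPM in wildtype, with log2 1.02 ± 0.40 (adjusted p = 0.346). Usp18 had log2 0.89 ± 0.45, Herc6 0.45 ± 0.19 and Trim25 0.11 ± 0.17 in PS19 against wildtype. None of the 4 passed in any comparison, and none had an unadjusted p under 0.05 in PS19_p16KO against PS19. Herc6 shares 13.7% of its exon bases with a same-strand gene model.

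The next genes encode proteins of membranes or secreted proteins. Ifitm3, which blocks fusion of viruses with endosomes, had 6.26, 3.41, 6.22 and 3.95 CPM in PS19_p16KO, 11.5, 9.9, 6.08 and 7.39 CPM in PS19, 4.73, 6.93, 4.67 and 6.38 CPM in p16KO, and 5.82, 4.8, 7.25 and 3.4 CPM in wildtype. PS19 libraries 1 and 2 were the highest of all, and PS19 library 3 lay within the wildtype range. Ifitm3 had log2 0.71 ± 0.25 in PS19 against wildtype (adjusted p = 0.243) and -0.80 ± 0.25 in PS19_p16KO against PS19 (adjusted p = 0.184). Rtp4, a chaperone for G protein-coupled receptors, had 3.22, 0.786, 1.77 and 1.03 CPM in PS19_p16KO, 2.58, 3.06, 2.69 and 1.82 CPM in PS19, 1.76, 1.59, 1.23 and 1.15 CPM in p16KO, and 1.68, 0.627, 1.32 and 1.11 CPM in wildtype. All PS19 libraries lay above all wildtype libraries, and the highest value of all was that of PS19_p16KO library 1. Its log2 fold change was 1.10 ± 0.36 in PS19 against wildtype (adjusted p = 0.182) and -0.56 ± 0.34 in PS19_p16KO against PS19 (adjusted p = 0.721). Rtp4 shares 13.9% of its exon bases with a same-strand gene model.

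Lgals3bp, a secreted glycoprotein that binds galectins, had 18.3, 10.1, 44 and 11.7 CPM in PS19_p16KO, 57.2, 40.7, 22.8 and 28 CPM in PS19, 15.9, 14, 11.3 and 24.5 CPM in p16KO, and 17.8, 15.6, 15.1 and 11.3 CPM in wildtype. PS19 and wildtype did not overlap, and PS19_p16KO library 3 stood at more than any PS19 library but the first. The log2 fold change was 1.31 ± 0.45 in PS19 against wildtype (adjusted p = 0.272). Without the 3 libraries rich in choroid plexus markers it was 1.39 ± 0.33 (adjusted p = 0.0741 by edgeR). Bst2 (tetherin), which holds budding virus on the cell surface, had 3.65, 2.41, 12.9 and 2.54 CPM in PS19_p16KO, 8.87, 6.31, 3.39 and 4.66 CPM in PS19, 3.02, 3.08, 3.03 and 4.39 CPM in p16KO, and 2.78, 2.82, 4.81 and 1.8 CPM in wildtype. The highest of all 16 was PS19_p16KO library 3, and p16KO library 4 was the highest of its group. Both of these libraries were rich in choroid plexus markers. Without the 3 libraries rich in such markers, PS19_p16KO against PS19 had a log2 fold change of -0.99 ± 0.32 for Bst2 (adjusted p = 0.271), against -0.12 ± 0.49 with them (adjusted p = 0.981). For Lgals3bp it was -1.44 ± 0.33 without them (adjusted p = 0.121), against -0.82 ± 0.44 with them (adjusted p = 0.662). The part of the choroid plexus in these values was not tested further.

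**Figure D3:**
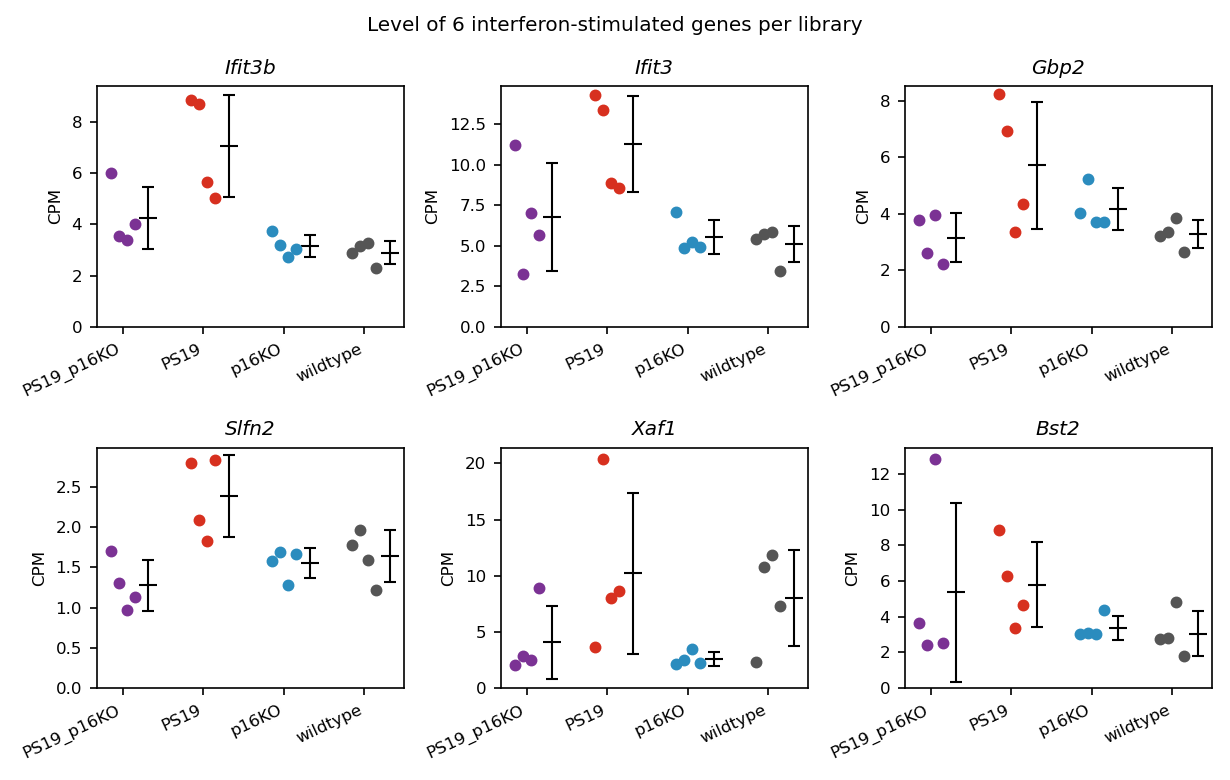
CPM of 6 genes in each library (points, libraries 1 to 4 from left to right in each group), with the mean ± SD of 4 libraries beside them in black. Ifit3b in PS19 lies above every wildtype value, Slfn2 in PS19_p16KO below every PS19 value, Xaf1 falls in 2 ranges, and the highest Bst2 value is that of PS19_p16KO library 3.

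The transcription factors include parts of the signalling complex itself. Irf7, which amplifies type I interferon production, had 2.37, 1.15, 2.09 and 1.03 CPM in PS19_p16KO, 3.06, 2.86, 1.78 and 2.3 CPM in PS19, 1.76, 0.771, 0.667 and 1.25 CPM in p16KO, and 1.21, 1.93, 1.32 and 1.01 CPM in wildtype. PS19 and wildtype overlapped only through PS19 library 3 and wildtype library 2. Irf7 had log2 0.86 ± 0.32 in PS19 against wildtype (adjusted p = 0.291) and -0.58 ± 0.31 in PS19_p16KO against PS19 (adjusted p = 0.658). Irf9, the DNA-binding part of the complex, had 9.81, 5.09, 8.31 and 5.41 CPM in PS19_p16KO, 12.2, 11.7, 8.18 and 10.5 CPM in PS19, 8.11, 5.8, 7.08 and 7.94 CPM in p16KO, and 9.9, 6.41, 8.04 and 6.1 CPM in wildtype. PS19_p16KO libraries 2 and 4 were the lowest of all 16. Irf9 had log2 0.48 ± 0.20 in PS19 against wildtype (adjusted p = 0.393) and -0.56 ± 0.20 in PS19_p16KO against PS19 (adjusted p = 0.303). Stat2, the partner of Irf9, lay between 16.1 and 24.4 CPM in all libraries, with log2 0.01 ± 0.11 in PS19 against wildtype, and Irf1, a target of interferon gamma, between 6.82 and 10.5 CPM, with log2 0.09 ± 0.16.

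Of the sensors, Ddx58 (RIG-I) ran from 4.18 to 8.6 CPM in PS19 and from 3.71 to 4.88 CPM in wildtype, with log2 0.55 ± 0.22 (adjusted p = 0.367). Its relatives Ifih1 (MDA5) and Dhx58 had log2 0.11 ± 0.15 and 0.47 ± 0.31. Ifi204, a mouse sensor of DNA, was below the filter of the test and had 0.0474, 0.21, 0.268 and 0.162 CPM in PS19_p16KO, 0.645, 1.94, 0.484 and 0.697 CPM in PS19, 0.225, 0.257, 0.359 and 0.418 CPM in p16KO, and 0.262, 0.359, 0.212 and 0.212 CPM in wildtype. All PS19 libraries lay above all others, and PS19 library 2 far above the rest. An exact two-sided permutation test gave p = 0.0286 for PS19 against wildtype (74 against 21 counts in all) and p = 0.0286 for PS19_p16KO against PS19 (13 against 74 counts), the smallest p that 4 against 4 libraries can give, with an adjusted p of 0.143 over the 15 such tests. With a library left out, Ifi204 entered some fits through its PS19 libraries alone, so its passes there are not counted among those of the tested genes. Zbp1, a sensor of left-handed nucleic acid, ran from 0 to 0.699 CPM with overlapping groups, and all 5 exact permutation p-values were 0.4 or more. Mx1, a GTPase that traps viral particles, had 3 counts in all in PS19_p16KO, 23 in PS19, 7 in p16KO and 11 in wildtype. Its PS19_p16KO libraries lay below all PS19 libraries (exact permutation p = 0.0286, adjusted p = 0.143).

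Parp9 and Dtx3l form a complex that adds ADP-ribose and ubiquitin, and Parp14 is a further ADP-ribosyltransferase. Parp9 had 3.79, 3.46, 4.34 and 3.3 CPM in PS19_p16KO, 5.32, 5.97, 3.6 and 3.64 CPM in PS19, 4.41, 3.6, 4.31 and 3.19 CPM in p16KO, and 2.67, 3.18, 3.6 and 2.23 CPM in wildtype. PS19 and wildtype met at nearly the same value without overlapping. Parp9 had log2 0.66 ± 0.19 in PS19 against wildtype (adjusted p = 0.108) and 0.40 ± 0.19 in p16KO against wildtype (unadjusted p = 0.0489, adjusted p = 0.999). Parp14 had 3.65, 2.57, 2.79 and 2.76 CPM in PS19_p16KO, 6.5, 5.39, 3.77 and 4.07 CPM in PS19, 3.6, 2.77, 3.9 and 2.35 CPM in p16KO, and 3.51, 3.36, 4.44 and 2.28 CPM in wildtype. All PS19_p16KO libraries lay below all PS19 libraries, the highest of them by a small margin. Parp14 had log2 0.53 ± 0.22 in PS19 against wildtype (adjusted p = 0.378) and -0.73 ± 0.22 in PS19_p16KO against PS19 (adjusted p = 0.16). Dtx3l had log2 0.27 ± 0.15 and -0.22 ± 0.15 in these comparisons. Parp9 and Dtx3l overlap on opposite strands over 9.4% and 8.0% of their exon bases, and no source used here gives the strand setting of the counting.

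Slfn2, a schlafen protein that keeps immune cells quiescent, had 1.71, 1.31, 0.965 and 1.14 CPM in PS19_p16KO, 2.79, 2.09, 1.83 and 2.84 CPM in PS19, 1.58, 1.7, 1.28 and 1.67 CPM in p16KO, and 1.78, 1.97, 1.59 and 1.22 CPM in wildtype. Every PS19_p16KO library was below every PS19 library, and PS19_p16KO libraries 3 and 4 were also below the lowest wildtype value. It had the smallest p of the 38 in PS19_p16KO against PS19 (log2 -0.88 ± 0.23, unadjusted p = 0.00117, adjusted p = 0.09) and passed without PS19 library 3. Without the 3 libraries rich in choroid plexus markers it had log2 -0.76 ± 0.26 (adjusted p = 0.29 by edgeR). In PS19 against wildtype Slfn2 had log2 0.53 ± 0.23 (adjusted p = 0.416). Sp100, a component of nuclear bodies, and Samd9l, a restriction factor, were the 2 genes with a negative fold change in PS19 against wildtype, at log2 -0.24 ± 0.24 and -0.17 ± 0.24, and neither passed.

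Among the mitochondrial and small IFI proteins, 0 of 5 had an unadjusted p under 0.05 in PS19 against wildtype, with a median log2 of 0.22. Xaf1, which promotes cell death, had 2.08, 2.88, 2.47 and 8.93 CPM in PS19_p16KO, 3.65, 20.4, 8.02 and 8.68 CPM in PS19, 2.12, 2.52, 3.44 and 2.19 CPM in p16KO, and 2.36, 10.8, 11.8 and 7.27 CPM in wildtype. The values fell into 2 ranges, from 2.08 to 3.66 CPM in 9 libraries and from 7.27 to 20.4 CPM in 7, and the low range held all p16KO libraries, PS19_p16KO libraries 1 to 3, PS19 library 1 and wildtype library 1. Xaf1 had log2 -1.66 ± 0.63 in p16KO against wildtype (unadjusted p = 0.0213, adjusted p = 0.999) and -1.31 ± 0.61 in PS19_p16KO against PS19 (adjusted p = 0.586). Of the 192 tested genes within 5 Mb of Xaf1 on chromosome 11, 0 passed in p16KO against wildtype, where 0 passed among all genes as well. Ifi27, a protein of the inner mitochondrial membrane, had 72.1 CPM in PS19_p16KO library 3 and 25.5 to 30.9 CPM in the other libraries of that group, against 29.5 to 40.7 CPM in PS19. Its log2 fold change in PS19_p16KO against PS19 was 0.18 ± 0.28, and -0.26 ± 0.10 without the 3 libraries rich in choroid plexus markers (adjusted p = 0.332). Ifi27l2a, Ifi35 and Ifi44 had log2 0.14, 0.23 and 0.22 in PS19 against wildtype, none past the test.

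In p16KO against wildtype, the effect of p16 loss without the transgene, 0 of 38 passed edgeR's test, and 0 passed DESeq2 and limma-voom, with 0% of all genes passing by edgeR. The median log2 fold change was 0.01 and 19 of 38 values were positive, against 49.7% of all genes. At an unadjusted p under 0.05, Parp9 was higher and Xaf1 lower, shares of 2.63% each, against 2.11% and 1.88% of all genes. In PS19_p16KO against p16KO, the effect of the transgene without p16, 0 passed by any of the 3 tools (0.0183% of all genes by edgeR), with a median of 0.14, 25 of 38 values positive (51.8% of all genes) and 1 gene, Rsad2, at an unadjusted p under 0.05 (1.86% of all genes were higher at that p). PS19_p16KO against wildtype likewise gave 0 by the 3 tools (0.0366% of all genes by edgeR), a median of 0.10, 26 of 38 values positive (52% of all genes) and 1 gene, Ifit3b, at an unadjusted p under 0.05 (4.2% of all genes). These 2 medians turned to -0.03 and -0.06 without PS19_p16KO library 1. Values of single genes also moved without the 3 libraries rich in choroid plexus markers, PS19_p16KO library 3 among them. In PS19_p16KO against wildtype, Bst2 then went from log2 0.81 to -0.12 and Lgals3bp from 0.49 to -0.05. Ifit3b and Rtp4 became larger, from 0.56 to 0.65 and from 0.54 to 0.75.

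The interaction asks directly whether the transgene effect differs by p16 genotype. None of the 38 genes passed by edgeR, DESeq2 or limma-voom (0 of 38, against 0.00611% of all genes by edgeR). The median log2 interaction was -0.40, against 0.01 for all genes, and 30 of 38 values were negative, where 52.1% of all genes were positive. At an unadjusted p under 0.05, 7 were lower (18.4%, against 4.16% of all genes), namely Gbp2, Ifit3b, Parp9, Ifitm3, Slfn2, Oas1a and Gbp7, and 0 were higher (1.28% of all genes). The median was -0.25 without PS19 library 1 and -0.70 without PS19_p16KO library 1. Without PS19 library 3 the interaction passed for 160 of 16584 genes, Gbp2 among them, against 1 of 16372 with all libraries.

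The libraries of a group differed from each other. In PS19, library 1 lay above every wildtype library for 32 of the 41 genes, library 2 for 31, library 3 for 18 and library 4 for 14. The median deviation of the 38 genes from the wildtype mean, on the scale of log2(CPM + 0.5), was 0.71, 0.56, 0.20 and 0.14 in PS19 libraries 1 to 4. In PS19_p16KO it was 0.29, -0.20, 0.22 and -0.23, so libraries 1 and 3 lay above PS19 libraries 3 and 4, and libraries 2 and 4 near the bottom of all 16. The range was -0.07 to 0.09 in p16KO and -0.22 to 0.16 in wildtype. PS19_p16KO library 1 was the highest of its group for 23 of the 41 genes, and PS19 library 1 for 26. Such counts by single library were not made over all genes. Those given here only set the libraries beside each other and show nothing particular to these 41 genes.

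Microglial markers moved with these values in part. All 12 were detected, and their summed level was 445 to 494 CPM in PS19_p16KO, 540 to 1135 CPM in PS19, 410 to 505 CPM in p16KO and 377 to 425 CPM in wildtype. Of the 12, 10 rose in PS19 against wildtype and 7 fell in PS19_p16KO against PS19, as did 8 and 7 of 10 markers of disease-associated microglia. Without the 3 libraries rich in choroid plexus markers, those rises came to 9 and 8. Those falls came to 1 and 4, in a fit that also called fewer of all genes in PS19_p16KO against PS19. The median log2 in that comparison was then -0.84 and -1.85, against -0.83 and -1.69 with all libraries. Within PS19, library 4 had more microglial signal than library 3 (728 against 540 CPM). Its median for the interferon-stimulated genes was lower (0.145 against 0.196), by less than the replicate SD of 0.215. In PS19_p16KO the microglial sums were 494, 446, 485 and 445 CPM in libraries 1 to 4. The medians of the interferon-stimulated genes had the same order (0.289, -0.203, 0.219 and -0.235), with libraries 2 and 4 nearly equal in both. In p16KO and wildtype the orders differed. The sums in p16KO were 505, 484, 453 and 410 CPM, with medians of 0.0909, 0.0573, -0.0653 and 0.00214. Those in wildtype were 425, 406, 413 and 377 CPM, with medians of -0.0265, 0.0974, 0.156 and -0.223. The part of microglial number in the differences was not tested. Astrocyte markers summed to 3863 to 4700 CPM in PS19_p16KO, 5202 to 7688 CPM in PS19, 4150 to 4833 CPM in p16KO and 4524 to 4651 CPM in wildtype, and 1 of 7 rose in PS19 against wildtype (Gfap, log2 1.84 ± 0.26; median of the 7, 0.21) and 2 of 7 fell in PS19_p16KO against PS19 (Gfap and Slc1a2; median -0.23). Of 6 oligodendrocyte markers, 0 passed edgeR's test in PS19 against wildtype, 5 had an unadjusted p under 0.05 and all 6 were positive (median log2 0.35), and 4 of 6 passed without the 3 libraries rich in choroid plexus markers. In PS19_p16KO against PS19 their median was 0.03. The endothelial markers had a median log2 of -0.09 in PS19 against wildtype, with 0 of 7 past edgeR's test and 0 at an unadjusted p under 0.05. The part of these cell types in the differences was not tested either.

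**Figure D4:**
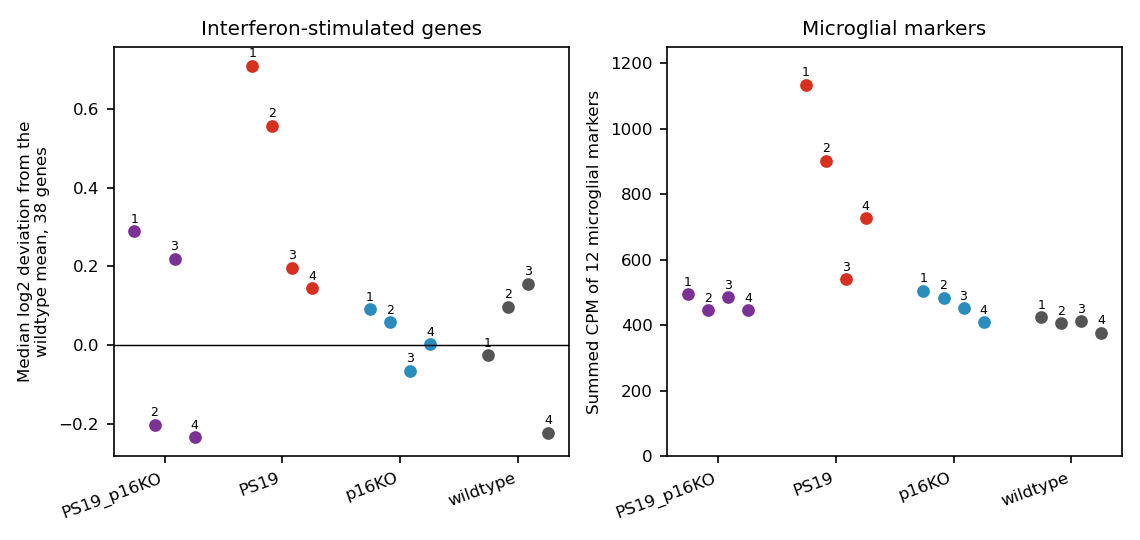
Left, median over 38 genes of log2(CPM + 0.5) minus the wildtype mean, by library. Right, summed CPM of 12 microglial markers, with replicate numbers beside the points. PS19 libraries 1 and 2 are highest in both panels. PS19_p16KO spreads from -0.23 to 0.29 on the left and from 445 to 494 CPM on the right, with its libraries in the same order. In the other groups the order differed between the panels.

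The promoter motifs were set beside the fold changes as a description. In PS19 against wildtype the median log2 fold change was 0.86 for the 14 genes with the ISRE core and 0.26 for the 16 with a window but no core. In PS19_p16KO against PS19 the medians were -0.64 with the core and -0.19 without it, and for the interaction -0.73 and -0.11. For the GAS, the medians in PS19 against wildtype were 0.53 with the motif (7 genes) and 0.48 without it (23 genes), in PS19_p16KO against PS19 -0.16 and -0.56, and for the interaction -0.26 and -0.39. The ranges overlapped: with the core, Stat2 lay at 0.01, and without it Lgals3bp had the highest value of the 38, at 1.31. The motif search read no measured value, and the genes come from 1 set of libraries, so no test was made.

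**Figure D5:**
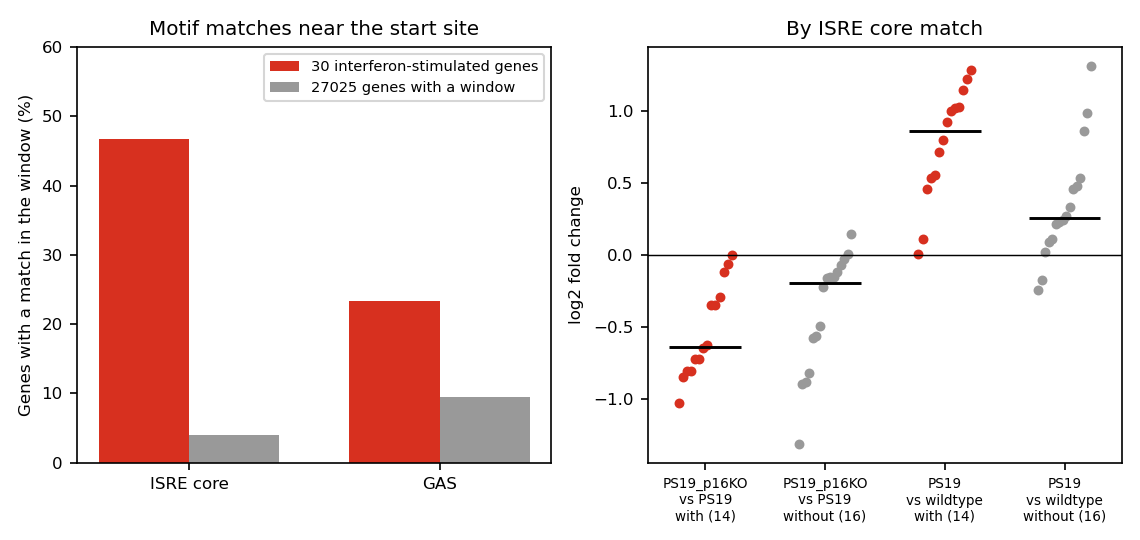
Left, share of genes with a match to the ISRE core or the GAS in the window from 250 bases before to 50 after the start, for 30 interferon-stimulated genes and for 27025 genes. Right, log2 fold changes of the 30 genes with and without an ISRE core, with medians as lines: in PS19 against wildtype 0.86 with it and 0.26 without it.

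The rest of the pathway was read from lists of known members. No interferon gene could be tested: of 21 rows for ligands 19 had 0 counts in all libraries, Ifnz had 1 count and Ifng 10. Of 10 tested receptors, kinases and STATs, 1 rose in PS19 against wildtype, Stat3, a factor shared with other cytokines (log2 0.59 ± 0.07, adjusted p = 0.000113), and it fell in PS19_p16KO against PS19 (log2 -0.33 ± 0.07, adjusted p = 0.0252). The receptor chains Ifnar1 and Ifnar2 had log2 0.06 ± 0.06 and 0.09 ± 0.11 in PS19 against wildtype, and neither passed the test.

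Of 13 genes that induce interferon, 4 rose in PS19: Unc93b1, which carries endosomal Toll-like receptors (log2 1.12 ± 0.15, adjusted p = 0.000697), the receptors Tlr7 (1.04 ± 0.25) and Tlr9 (1.38 ± 0.30), and the factor Irf5 (0.66 ± 0.16). Unc93b1 and Irf5 fell in PS19_p16KO against PS19 (log2 -0.78 ± 0.15 and -0.70 ± 0.16). Without the 3 libraries rich in choroid plexus markers, 2 of the 13 rose and 0 fell. Median log2 of the 13 was then 0.33 in PS19 against wildtype and -0.20 in PS19_p16KO against PS19, against 0.28 and -0.12 with all libraries. Of 14 negative regulators Socs3 and Ptpn6 rose in PS19 (log2 1.27 ± 0.31 and 1.53 ± 0.19), and Ptpn6, a phosphatase of immune cells, fell in PS19_p16KO against PS19 (log2 -1.02 ± 0.19). Without the 3 libraries, 1 of the 14 rose in PS19 against wildtype and 1 fell in PS19_p16KO against PS19. The medians of the 14 in these comparisons were then 0.05 and -0.05, against 0.07 and -0.07 with all libraries. Several of these genes are also expressed mainly by microglia.

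Of 42 further interferon-stimulated genes that were tested, 4 rose in PS19: the factor Irf8, the proteasome subunit Psmb8, the chemokine Cxcl10 and the lysosomal reductase Ifi30. Cxcl10 had 1.04, 0.577, 0.965 and 0.433 CPM in PS19_p16KO, 3.06, 2.09, 2.42 and 1.39 CPM in PS19, 0.811, 0.925, 0.615 and 0.261 CPM in p16KO, and 0.576, 1.17, 0.529 and 0.583 CPM in wildtype. Every PS19 library lay above every library of the other 3 groups. Cxcl10 rose in PS19 (log2 1.62 ± 0.36, adjusted p = 0.0212) and fell in PS19_p16KO against PS19 (log2 -1.55 ± 0.36, adjusted p = 0.0458). Irf8 (log2 -1.22 ± 0.23) and the kinase Eif2ak2 (-0.61 ± 0.14) also fell in PS19_p16KO against PS19, and Eif2ak2 was not among the 4 that rose. Without the 3 libraries, 3 of the 42 rose and 0 fell. The median log2 of the 42 was 0.36 in PS19 against wildtype and -0.20 in PS19_p16KO against PS19. Without the 3 libraries these medians were 0.32 and -0.41.

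Of 11 tested GTPases of the interferon gamma response, Irgm1 and Gbp2b rose in PS19, and Irgm1 fell in PS19_p16KO against PS19 (log2 0.73 ± 0.15 and -0.73 ± 0.15). Gbp2b, next to Gbp2 and Gbp3, had 1.28, 1.15, 1.93 and 1.14 CPM in PS19_p16KO, 3.71, 2.18, 1.56 and 0.965 CPM in PS19, 0.811, 0.976, 1.79 and 0.784 CPM in p16KO, and 0, 0, 0 and 0.159 CPM in wildtype. Wildtype held 3 counts in all, and all 12 libraries of the other groups lay above it, p16KO among them. It passed in PS19 against wildtype (adjusted p = 0.000233) and in PS19_p16KO against wildtype (adjusted p = 0.00441). Within 5 Mb of the cluster 53 genes were tested, and 2 more passed in PS19 against wildtype, 4930590L14Rik (higher, adjusted p = 0.000745) and 1110002E22Rik (lower, log2 -0.93, adjusted p = 0.00844). The first of them also passed in PS19_p16KO against p16KO, and the part of this region in the values of Gbp2, Gbp3 and Gbp7 was not tested.

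To compare levels between genes, counts were scaled by exon length to TPM, transcripts scaled to a common total. In wildtype the highest were Ifi27 at 85.3 TPM ± 4.35, Ifitm3 at 32.5 ± 9.64, Cmpk2 at 30.3 ± 3.34 and Lgals3bp at 21.8 ± 4.02 (SD, n = 4), where Ifitm3 and Cmpk2 do not differ beyond their spread. Stat2 (14.4 ± 1.31), Bst2 (14 ± 5.63) and Ifit3 (12.1 ± 2.68) followed within each other's spread. The lowest were Zbp1, Ifi204 and Mx1, at 0.346, 0.305 and 0.154 TPM. In PS19 the first places went to Ifi27 at 97.4 TPM ± 13.5, Lgals3bp at 53.5 ± 21.5 and Ifitm3 at 52.8 ± 14.1.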

How the data were processed

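Hippocampal RNA was sequenced as 16 bulk libraries, and the authors deposited raw counts per gene, 1 column per sample. Trimmomatic 0.36, STAR 2.5.2b, featureCounts, Subread 1.5.2, DESeq2 and build GRCm38 are named in the submitters' processing notes. No source used here states the annotation release or the strand setting. Gene symbols came from GENCODE annotation of that build. The 92 spike-in rows (0.574% to 1.06% of counts) entered neither library sizes nor tests. The other 49671 rows entered CPM, and 16372 passed edgeR's filter (minimum count 10). The test was edgeR 4.0.16's quasi-likelihood F test with TMM scaling on all 16 libraries, 1 mean per group, with Benjamini-Hochberg adjustment and a threshold of 0.05. The SE was derived from the log2 fold change and its F value. DESeq2 1.42.0, limma-voom (limma 3.58.1), other scalings, filters and samples were alternatives. The edgeR steps were tested on simulated data. Exact permutation tests used SciPy 1.17.1.

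The members, lists and tests were chosen with earlier results of these data known. All 41 members may be named. Values of each library are given for members past the threshold and for the 10 with the smallest p in PS19 against wildtype and in PS19_p16KO against PS19. Of other lists, the up to 4 past the threshold with the smallest p are named. Values by library of Ifi204, Bst2, Xaf1 and Gbp2b, and other genes outside this rule, were chosen after their values were seen. No label ties the 4 samples of a group to separate mice, and the p-values measure only their spread, which may be technical. The counts of every pair within a group differed by more than sampling noise (chi-square per degree of freedom 4.82 to 26.3). Libraries held 18485552 to 22311322 counts.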

Additional observations from a re-analysis of the deposited data

Results flagged for a closer look

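Among 164 sets of 4 libraries (41 genes in 4 groups), 8 held a library far from the other 3 of its group by Dixon's test. Chance gives about 5% of sets, so the number found is no more than chance would give. Ifi204 had 1.94 CPM in PS19 library 2, against 0.484 to 0.697 CPM in the other PS19 libraries. Bst2 had 12.9 CPM in PS19_p16KO library 3, against 2.41 to 3.65 CPM, and 4.39 CPM in p16KO library 4, against 3.02 to 3.08 CPM. Ifi27 had 72.1 CPM in PS19_p16KO library 3, against 25.5 to 30.9 CPM. Irf1 had 10.2 CPM in p16KO library 4, against 6.82 to 7.3 CPM. These last 4 values lie in the 2 libraries with the highest choroid plexus markers, whose part in them was not tested. Xaf1 had 8.93 CPM in PS19_p16KO library 4, against 2.09 to 2.88 CPM in the other libraries of that group. Mx1 had 0 CPM in PS19_p16KO library 2, against 0.0474 to 0.0541 CPM, a difference of 1 read. Dtx3l had 9.47 CPM in wildtype library 3, against 8.54 to 8.7 CPM.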

How the results depend on the processing

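Of the 38 tested genes, 1 passed in PS19 against wildtype. Of those each alternative tested, 2 passed with DESeq2, with the replicate block, with a term for the library-name suffix and with only the groups compared (Ifit3 and Ifit3b each time), and 2 of all 41 with no filter on low counts (Ifi204 and Ifit3b). Leaving out 1 library gave 1 to 4 of 38 to 40 tested, Ifi204 included: 4 without PS19 library 3, 3 without PS19_p16KO library 1, and 2 without PS19 library 4 or PS19_p16KO library 2. In PS19_p16KO against PS19, 1 passed with no filter (Ifi204), and 0 to 3 with a library left out, 3 of them without PS19 library 3 (Gbp2, Ifi204 and Slfn2). With a group of 3 the filter admits Ifi204 only through PS19, the group where it is high, so its passes support nothing; without it the highest counts are 3 and 2. For the interaction the range was 0 to 1, with Gbp2 passing without PS19 library 3. The median over the genes with a library left out ran from -0.718 to -0.23 in PS19_p16KO against PS19 and from -0.704 to -0.248 for the interaction, the weaker ends without PS19 library 1 and the stronger ones without PS19_p16KO library 1; in PS19 against wildtype it ran from 0.407 to 0.624. Counts over all genes moved more: 264 in PS19 against wildtype became 396 with DESeq2, 70 with only the groups compared and 124 to 438 with a library left out. In PS19_p16KO against PS19, 135 became 278 with DESeq2, 87 with the suffix term, 8 with only the groups compared, 62 without the 3 libraries rich in choroid plexus markers (chosen after seeing the data), and 29 to 347 with a library left out. For the interaction 1 became 88 with DESeq2, 20 with no filter, 13 with the suffix term, 0 with limma-voom and 1 to 160 with a library left out, 160 without PS19 library 3. Same-numbered libraries did not deviate together (6 of 24 pairs over r = 0.1, range -0.388 to 0.223, and 4 of 16 libraries closest to their own number). This check found no pairing by number but cannot exclude it, because paired samples need not deviate together. Genes with few counts, such as Mx1, Zbp1 and Ifi204, are limited by depth.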
